A study of Mus musculus with 53 samples.

Results

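Brainstem was compared between SCA3 and wild-type mice, using the 14 brainstem libraries of a brain RNA sequencing series of 53 libraries that also covered cerebellum, cortex and striatum (13 libraries each). The members were chosen by the region and genotype that the labels give: 8 brainstems of wild-type mice and 6 of SCA3 mice, 1 library per mouse. All were untreated males aged 74 to 77 weeks that had gone through motor tests in life. The SCA3 mice were hemizygous MJD84.2 animals: beside their own Atxn3 they carry the whole human gene, its CAG repeat expanded, under the human promoter and expressed in all tissues. Wild-type C57BL/6 controls carry mouse Atxn3 only. Reads were aligned to the mouse genome, so the transgene itself was not measured.

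Spinocerebellar ataxia type 3 is caused by a CAG repeat in ATXN3 that lengthens a glutamine stretch in ataxin-3, a deubiquitinating enzyme. The brainstem, which holds cranial nerve nuclei, the pons and large ascending and descending fibre tracts, is among the regions affected in patients. Much of its tissue is white matter: oligodendrocytes arise from dividing precursors, pass through a premyelinating stage under transcription factors such as Olig1, Olig2 and Sox10, and then make the proteins and lipids of myelin. Astrocytes clear glutamate and potassium around the axons and supply glutamine and cholesterol. In bulk tissue, fewer cells of a type and less RNA per cell cannot be told apart.

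The brainstem libraries held 31.7 to 72.4 M counts over 12372 genes. Glra1, a glycine receptor subunit typical of hindbrain and spinal cord, had a median of 105 CPM, its counts relative to library size in brainstem, against 6.89 in cerebellum, 1.04 in cortex and 1.06 in striatum. Only 2 of 18 listed hindbrain identity genes were in the table, so the labelled tissue was checked mainly by this gene. The dissections were not alike. In 6 libraries, 3 of each genotype, Th, the enzyme that starts dopamine and noradrenaline synthesis, lay between 20.1 and 138 CPM, and in the other 8 between 6.2 and 10.1. Glra1 lay between 23.1 and 69.6 CPM in the first set and between 98.5 and 181 CPM in the second. Of the high-Th libraries, wild-type replicate 1 and SCA3 replicates 5 and 6 also stood apart in their score for thalamus markers, a mean of standardised log2 levels (1.16 to 1.56, against at most 0.0495 in the others). Cbln3, a granule cell gene of cerebellum, reached 38.6 CPM in wild-type replicate 7 and 69.5 CPM in SCA3 replicate 1, against at most 6.04 elsewhere. On the first principal component, with 41.5% of the variance, the high-Th libraries lay between -26.2 and -4.17 and the low-Th ones between 8.23 and 23.5. Values for the low-Th libraries alone are given beside several of the results below.

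RNA integrity and bodyweight differed by genotype, and library totals did not pass the test. The RNA integrity number (RIN) averaged 7.24 ± 0.42 over the 8 wild-type libraries (SD) and 7.78 ± 0.26 over the 6 of SCA3, a difference of 0.546 (exact two-sided permutation test, p = 0.011, adjusted p = 0.016 over 3 such tests). Within the largest group of mice sharing the first digits of their numbers (4 wild-type, 3 SCA3) the RIN difference was 0.242 (exact permutation p = 0.23), and in the second largest (3 and 2) 1.08 (p = 0.1, the smallest possible). Library totals differed by 14.3 M (exact permutation p = 0.075, adjusted p = 0.075), by -3.54 M within the largest mouse group (exact permutation p = 0.6) and by 31.8 M within the second largest (p = 0.1, the smallest possible). Bodyweight ranged from 28.2 to 34.7 in SCA3 and from 37.2 to 53.6 in wild-type mice (unit not given in the labels, taken as grams; exact permutation p = 0.00033, adjusted p = 0.00099). As these ranges do not overlap, genotype and bodyweight cannot be told apart here. Library numbers in the labels run through all wild-type mice first, so their order and genotype cannot be told apart either. Within the largest mouse group all wild-type mice were aged 75 weeks and all SCA3 mice 74, and their numbers fell in separate blocks. Age, number block and genotype cannot be told apart within it.

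Mouse Atxn3 gave no call. It measured 36.2, 45.3 and 48.4 CPM (lowest, median and highest) in SCA3 and 41.1, 43.9 and 49.7 CPM in wild-type brainstem, a log2 fold change of 0.001 (SE 0.07, FDR 0.996). The groups overlap. The value does not check the labels, because the transgene is human.

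Which genes differed by genotype was tested with edgeR's likelihood ratio test in the 14 libraries alone, with the false discovery rate (FDR) taken over all genes. At an FDR below 0.05, 392 genes, or 3.17% of those tested, were called: 164 were higher in SCA3 (1.33%) and 228 lower (1.84%). Most differences were small. The median size of the log2 fold change among called genes was 0.34, against 0.0825 over all genes, and in 14 of the called genes it exceeded 1. In 70 of the genes called higher, every SCA3 library lay above every wild-type library, and in 63 of the genes called lower every one lay below. Over all genes tested, 0.711% were separated in the first way and 0.655% in the second. Fitted alone in the same manner, the other regions gave 0.17% of genes called in cerebellum, 0.283% in cortex and 0.711% in striatum, with the same or 1 fewer mice per genotype. The order of the regions turned with the fit: with 53 libraries in 1 fit, 1.92% of genes were called in brainstem, 7.54% in striatum, 0.154% in cortex and 0.0647% in cerebellum. Striatum fitted alone had the larger median effect size (0.109 on the log2 scale, all genes included). The median variation between mice of a genotype (biological coefficient of variation) was 0.103 in brainstem, 0.0963 in cerebellum, 0.132 in cortex and 0.136 in striatum.

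All 392 genes kept their direction under each of 16 other settings and with each of 14 libraries left out, but the number called varied. With the Th set of the library as a covariate 838 genes were called, including all 392. In the 8 low-Th libraries alone (5 wild-type, 3 SCA3) 474 were called, 275 of them among the 392. With RIN as a covariate 216 genes were called, 133 of them shared, and the balance moved to 116 higher and 100 lower. RIN went with genotype in these libraries, and its part in the result was not tested beyond such fits. Leaving out 1 library gave 249 to 516 calls, with 258 without wild-type replicate 4, 253 without SCA3 replicate 1 and 249 without SCA3 replicate 5. Counting did not use strand, and 14 of the genes named below by FDR, size or region (Chdh, Tmc3, Col9a3, Hip1r, Fbxw15, Tspan2, Qdpr, Glul, Ttyh1, Desi1, Cdkn1c, Slc13a5, Myo9a and Slc1a2) share exonic bases with another gene, whose reads cannot be told apart there.

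Zfp488 and Polr2a had the smallest FDR among genes higher in SCA3. Zfp488 (chr14:33967070-33978764, GRCm38), a zinc finger repressor that acts with Olig2 in oligodendrocyte differentiation, measured 16.9, 18.3 and 21.3 CPM (lowest, median, highest) in SCA3 and 3.64, 5.29 and 7.61 CPM in wild-type. The groups were fully apart (log2 fold change 1.78, SE 0.13, FDR 1.42e-36). Polr2a (chr11:69733997-69758637), the largest subunit of RNA polymerase II, measured 199, 218 and 234 CPM in SCA3 and 113, 132.5 and 140.5 CPM in wild-type (log2 fold change 0.74, SE 0.06, FDR 2.31e-28). Again no library crossed over. None of the other 11 measured subunits of this polymerase was called (list median 0.03).

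Further genes higher in SCA3 with a small FDR follow. Chdh, the mitochondrial choline dehydrogenase, measured 31.5, 33.6 and 41.1 CPM in SCA3 against 12.7, 17.9 and 19 CPM in wild-type (log2 fold change 1.03, SE 0.1, FDR 8.42e-23). Smoc1, a secreted matrix protein that opposes BMP signalling, measured 45.6, 52.5 and 57 CPM against 19, 23.9 and 31.3 CPM (log2 fold change 1.09, SE 0.11, FDR 4.63e-20). Both were apart between the genotypes. The type IX collagen chains Col9a2 and Col9a3 rose by 0.97 and 0.70 on the log2 scale. Also higher were Prob1 (1.00), Tmc3 of the transmembrane channel-like family (1.16), Rnf43, a ligase that removes Wnt receptors (1.06), the kinesin Kif19a (1.22), Galnt10, which starts O-glycan chains (0.59), and Hip1r, an endocytic adaptor (0.35). The FDR of these 8 genes ran from 3.4e-08 for Hip1r to 2.15e-24 for Prob1.

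Ppl (chr16:5086291-5132421), which encodes the cytoskeletal linker periplakin, had the highest fold change among called genes. It measured 5.9, 9.93 and 16.5 CPM in SCA3 and 1.13, 1.71 and 6.3 CPM in wild-type, a log2 fold change of 2.12 (SE 0.36, FDR 1.23e-06). The groups overlap through wild-type replicate 3, at 6.3 CPM, while the next wild-type value was 2.48 CPM. That library also had the lowest RIN (6.3) and the fewest counts. In low-Th libraries alone the log2 fold change of Ppl was 1.36 (FDR 0.0401). Cdkn1c, an imprinted cyclin-dependent kinase inhibitor, was higher by 1.15 (SE 0.27, FDR 0.00193) with overlapping groups. This call was lost with limma-voom (FDR 0.0606) and in the largest mouse number group alone (FDR 0.24).

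Il33, Car2, Fbxw15 and Tspan2 had the smallest FDR among genes lower in SCA3. Il33 (chr19:29925114-29960718), a nuclear cytokine that in brain is made largely by oligodendrocytes and astrocytes, measured 58.5, 66 and 73.2 CPM in SCA3 and 123, 173 and 190 CPM in wild-type. No library overlapped (log2 fold change -1.35, SE 0.09, FDR 1.93e-42). Car2 (chr3:14886273-14900770), the cytosolic carbonic anhydrase abundant in oligodendrocytes, measured 161, 189 and 228 CPM against 336, 479 and 540 CPM (log2 fold change -1.27, SE 0.12, FDR 2.05e-20). Tspan2, a tetraspanin of myelinating cells, measured 124, 138 and 162 CPM against 200.2, 256 and 305 CPM (log2 fold change -0.87, SE 0.09, FDR 2.1e-17). In each of the 3 genes, the highest SCA3 library stayed below the lowest wild-type library.

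Fbxw15, an F-box gene with close relatives that could share or lose reads, fell by 1.80 on the log2 scale (FDR 3.88e-19) from a wild-type median of 11.9 CPM. Further genes of smallest FDR were Qdpr, which regenerates tetrahydrobiopterin (-0.64), Glul (-0.63), the chitinase-like Chil1 (-0.75), the centriolar protein gene Ccp110 (-0.55), the leak potassium channel Kcnk13 (-0.98), Erbb2ip, an adaptor of the ErbB2 receptor (-0.90), Ttyh1 of the tweety channel family (-0.45) and Desi1, a SUMO protease (-0.40). Their FDR ran from 1.58e-07 to 7.62e-12. Serpinb1a, an inhibitor of neutrophil proteases, was lower by 1.35 (FDR 4.29e-07). The fold change of 1700019G17Rik (-1.78, FDR 0.047) came from 3 wild-type libraries at 17.2 to 20.5 CPM, since the other 5 lay between 2.22 and 2.97 CPM and SCA3 between 1.77 and 2.78 CPM. Its call was lost under 10 of the 16 settings and in 9 of the 14 fits with a library left out (wild-type replicates 3, 7 and 8 and each of the 6 SCA3 replicates).

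**Figure D1:**
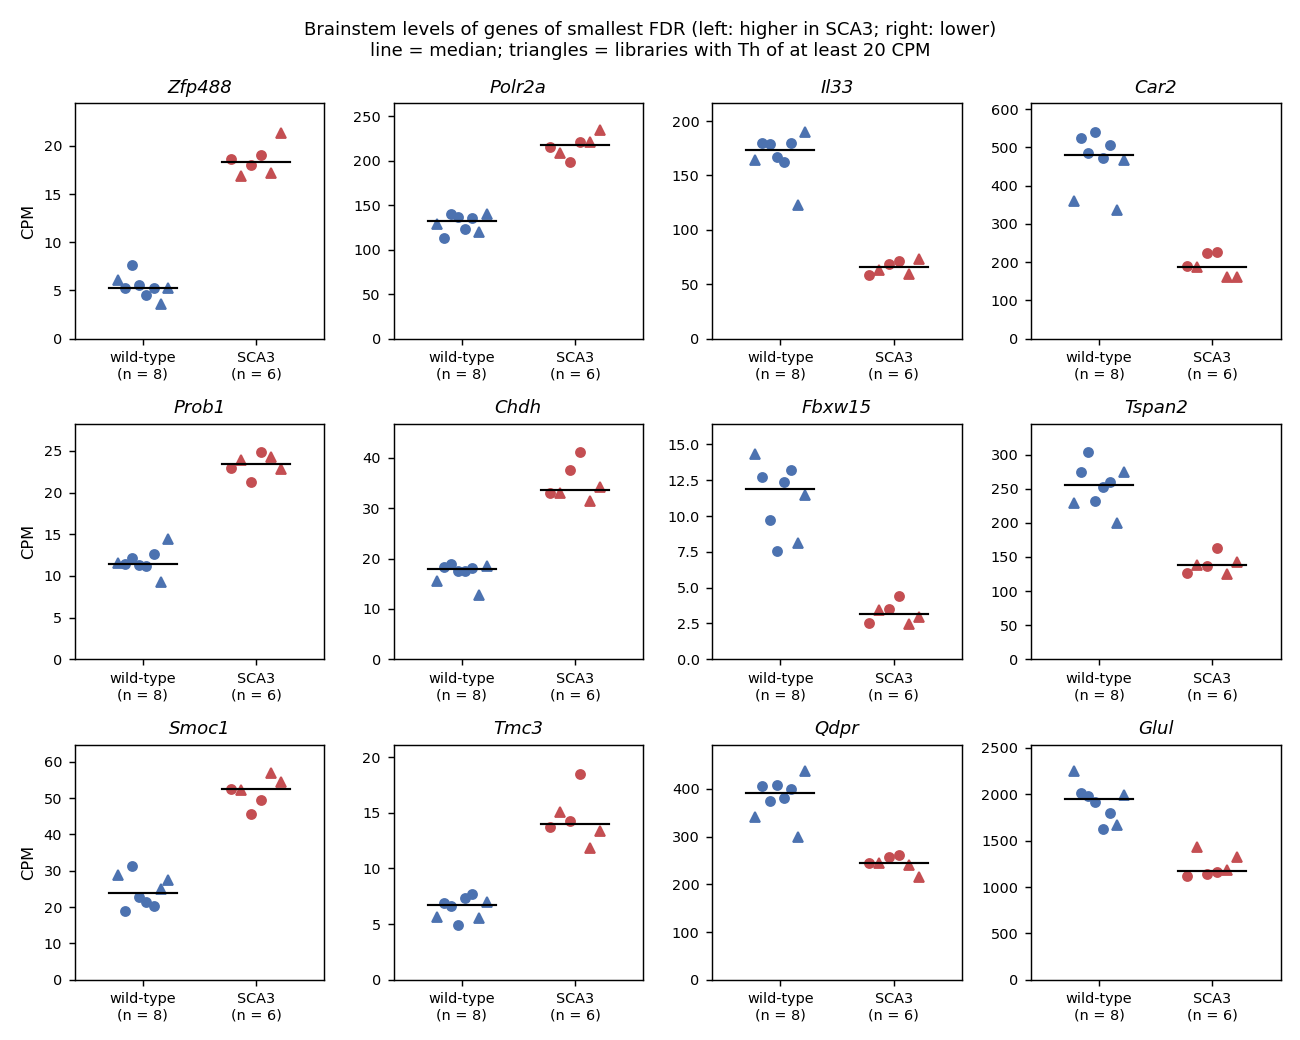
Level in CPM (linear axes from 0) of 12 genes in each brainstem library, wild-type in blue and SCA3 in red, with triangles for libraries with Th of at least 20 CPM and a line at the group median. In all 12 genes the 6 SCA3 libraries lie fully above or fully below the 8 wild-type libraries, for example Zfp488 at 16.9 to 21.3 CPM against 3.64 to 7.61 CPM.

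Called members of the oligodendrocyte lineage transcription factor, precursor and premyelinating lists were higher in SCA3, and those of the mature list lower. Most members of each list were not called. The transcription factor list is not confined to an early stage, as it also holds Myrf. Of 18 measured lineage transcription factors 4 rose and none fell (list median log2 fold change 0.15), of 10 precursor markers 3 rose (0.20), and of 9 premyelinating markers 2 rose (0.22). Of 22 mature oligodendrocyte markers, 6 fell and none rose (list median -0.22). The share of all genes called was 3.17%, against 22.2% to 30% in these 4 lists. No test of the lists themselves was made. Members of these and the later lists were chosen with earlier results of these data known, so the shares called are a description.

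The transcription factors that rose, besides Zfp488, were Olig1, Olig2 and Sox8. Olig1, a basic helix-loop-helix factor required for myelin repair, measured 253, 272 and 283 CPM in SCA3 and 145, 174 and 239 CPM in wild-type (log2 fold change 0.56, SE 0.09, FDR 6.46e-07). Olig2, which specifies the lineage, measured 69.5, 80.6 and 85.7 CPM against 44.1, 58.2 and 62.8 CPM (0.48, SE 0.08, FDR 4.29e-07). Sox8, a relative of Sox10, measured 88.3, 93.4 and 116 CPM against 51.8, 63.3 and 73.3 CPM (0.58, SE 0.09, FDR 1.22e-07). Each of these 3 factors was apart between genotypes. Their partners were not called: Sox10 had a log2 fold change of 0.02 (FDR 0.957), Myrf, which switches on myelin genes, -0.11 (FDR 0.719), and Nkx2-2 0.22 (FDR 0.428).

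Among precursor genes, Matn4, a matrix protein, rose by 0.67 (FDR 2.79e-05), Susd5 by 0.57 (FDR 1.01e-06) and Neu4, a sialidase, by 0.39 (FDR 0.0412). Matn4 lost its call with RIN as covariate (0.46, FDR 0.0618), in the largest mouse number group (FDR 0.172), in low-Th libraries alone (FDR 0.0599) and with RIN and without the library of RIN 6.3 (FDR 0.36). Neu4 lost its call under 7 of the 16 settings and in 9 of the 14 fits with a library left out. The receptors that define precursors did not pass: Pdgfra was at -0.18 (FDR 0.419) and Cspg4 at 0.22 (FDR 0.272). Of the premyelinating markers Kif19a and Fyn, a kinase that relays axonal signals to oligodendrocytes (0.23, FDR 0.000506), rose, and Fyn lost its call in the largest mouse number group and with RIN and without the library of RIN 6.3. Gpr17, the receptor that marks this stage, had 0.36 (FDR 0.0721) and Bcas1 0.23 (FDR 0.519).

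Aspa (chr11:73304992-73329596), which breaks down N-acetylaspartate to acetate for lipid synthesis, measured 25.6, 34.9 and 47.6 CPM in SCA3 and 43.2, 73.4 and 80.3 CPM in wild-type (log2 fold change -0.91, SE 0.16, FDR 1.51e-05). The groups overlap through 1 high-Th wild-type library at 43.2 CPM. Ugt8a, the enzyme of galactocerebroside synthesis (-0.84), Mobp (-0.68), the raft protein gene Mal (-0.66) and Cldn11, the tight junction protein of myelin (-0.58), also fell. Of the mature list the quasi-likelihood test called 4 lower, without Cldn11 and Ugt8a (FDR 0.0526 for each), and limma-voom 5, without Cldn11 (FDR 0.0514).

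Other myelin genes did not pass the test. Mbp, the basic protein that compacts myelin, measured 5139, 7272 and 9438 CPM against 5142, 9866 and 10970 CPM (-0.29, FDR 0.509). Mag, Mog and Cnp lay between -0.04 and -0.05 with FDR between 0.907 and 0.917. The study chose a list of 11 myelination genes on these same samples, so neither its direction nor its share called is independent evidence. Of this list 5 rose (Olig1, Olig2, Ddx54, Fyn, Cdkn1c) and 4 fell (Pmp22, Mal, Tspan2, Aspa), or 81.8% against 3.17% of all genes. With RIN as covariate 4 were called higher and 2 lower, and in the largest mouse number group 1 and 2. Ddx54 lost its call in each of these fits (FDR 0.144 and 0.538). Pmp22 was not called by the quasi-likelihood test (FDR 0.0845), by limma-voom (FDR 0.0829), with RIN as covariate or in the largest mouse number group, and lost its call in 7 of the 14 fits with a library left out.

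Calls of myelin genes changed with the Th set and with RIN in the fit, and RIN itself differed by genotype. In wild-type mice Aspa was 65.1 to 80.3 CPM in the 5 low-Th libraries and 43.2 to 71.5 CPM in the 3 high-Th ones, and in SCA3 mice 35.3 to 47.6 and 25.6 to 34.4 CPM (n = 3 each). Within each set the SCA3 values lay below all wild-type values. With the Th set as covariate 9 mature markers were lower and 1 higher, and in low-Th libraries alone 9 were lower. With RIN as covariate only 1 was called (list median -0.07). The member called was Aspa (-0.70, FDR 0.0206), which was not called with RIN as covariate and without the library of RIN 6.3 (-0.63, FDR 0.154), and Mobp had -0.43 (FDR 0.284). In the largest mouse number group alone, where RIN differed by 0.242, Mobp had -0.71 (FDR 0.145) and the list a median of -0.34, with Aspa alone called (-0.98, FDR 0.0297). The 4 transcription factors were called in the RIN fit and in low-Th libraries alone, and 3 of them in that mouse group, where Olig1 had 0.44 (FDR 0.172). Of the precursor markers 1 was called higher in the RIN fit and 1 in that mouse group, 1 higher and 1 lower in low-Th libraries alone, and 4 higher and 1 lower with the Th set as covariate. Of the premyelinating markers 2 were called higher in the RIN fit, 1 in that mouse group and 3 in low-Th libraries alone.

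**Figure D2:**
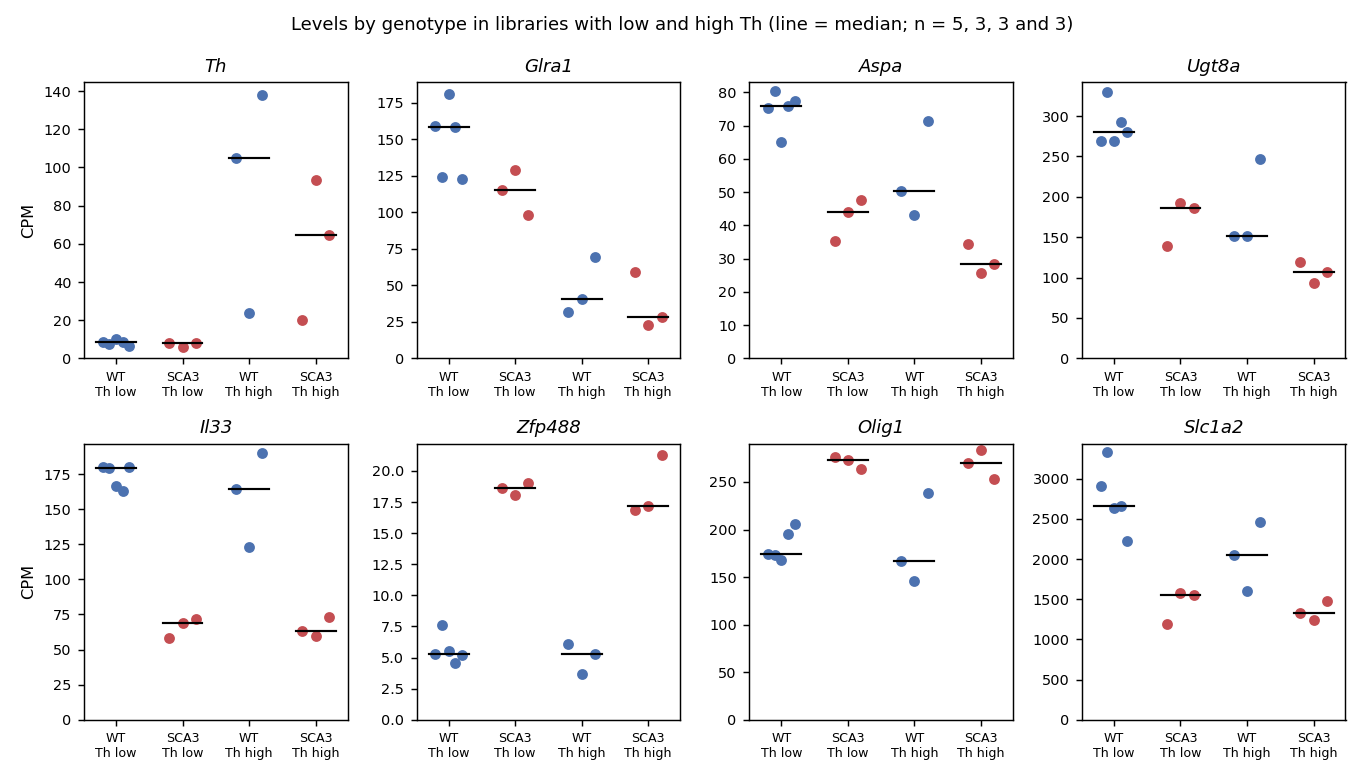
Level in CPM (linear axes from 0) of Th, Glra1 and 6 glial genes in wild-type (blue) and SCA3 (red) brainstem, split into low-Th (below 20 CPM; n = 5 and 3) and high-Th libraries (n = 3 and 3), with a line at each median. The medians of Aspa (50.4 against 76 CPM in wild-type, 28.4 against 44 CPM in SCA3) and Ugt8a are lower in high-Th libraries, and both genes lie lower in SCA3 within each set, as does Il33, while Zfp488 lies higher.

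Of 20 astrocyte markers 8 fell in SCA3 and none rose (40% called, against 3.17% of all genes; list median -0.35). DESeq2 called 10 of them lower, the quasi-likelihood test 4 and limma-voom 5. Slc1a2 (chr2:102658659-102790784), the main glutamate transporter of astrocytes, measured 1198, 1404 and 1577 CPM in SCA3 and 1602, 2553 and 3330 CPM in wild-type (log2 fold change -0.83, SE 0.14, FDR 9.3e-07). With RIN as covariate and without the library of RIN 6.3, Slc1a2 was not called (-0.56, FDR 0.0599). Glul, glutamine synthetase, which turns glutamate into glutamine, measured 1118, 1174 and 1432 CPM against 1622, 1946 and 2249 CPM (-0.63, SE 0.08, FDR 1.12e-10). Neither gene overlapped between genotypes. Gja1, which encodes the gap junction protein connexin 43, measured 193, 228 and 262 CPM against 277, 339 and 424 CPM (-0.58, SE 0.1, FDR 5.09e-07), and Slc4a4, a bicarbonate cotransporter, fell by 0.45 (FDR 1.14e-06; FDR 0.0776 in the largest mouse number group alone).

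Agt, angiotensinogen (-0.61), Aldoc (-0.36), Fgfr3 (-0.29) and Aldh1l1, a folate enzyme (-0.22), fell with overlapping groups. Aldoc, Fgfr3 and Aldh1l1 were not called by the quasi-likelihood test (FDR 0.101, 0.0815 and 0.0548) or by limma-voom (FDR 0.102, 0.0855 and 0.0562), and lost their calls in 10, 11 and 8 of the 14 fits with a library left out. Agt was not called by the quasi-likelihood test either (FDR 0.0535), and had -0.19 (FDR 0.758) in the largest mouse number group alone. Other astrocyte genes gave no call: Slc1a3, another glutamate transporter gene of these cells, had -0.04 (FDR 0.939) and S100b 0.15 (FDR 0.84). Gfap, which rises in reactive astrocytes, measured 270, 542 and 1223 CPM against 284, 1012 and 2245 CPM (-0.68, FDR 0.497), a wide spread within either genotype. None of 12 measured reactive astrocyte genes was called by edgeR, at FDR or at an unadjusted p below 0.05, nor by DESeq2 or limma-voom (list median -0.25). With RIN as covariate that median was 0.34 and 1 reactive gene was called higher. In the same fit 4 astrocyte markers were called lower and the list median was -0.13; with the Th set as covariate 12 were called lower, and in low-Th libraries alone 10 (list median -0.41). In the largest mouse number group the list median was -0.21 and 3 markers were called lower, Glul (-0.53, FDR 0.00059), Slc1a2 (-0.65, FDR 0.0308) and Gja1 (-0.45, FDR 0.0258).

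Lipid synthesis genes lay mostly below 0. The cholesterol pathway, whose enzymes turn acetyl-CoA into the sterol that myelin needs in bulk, had all 22 of 22 measured enzymes below 0 (list median -0.23), but only 3 passed the test (13.6%, against 3.17% of all genes). The list had 5 calls by DESeq2 and 1 each by the quasi-likelihood test and limma-voom. Hmgcs1, which makes HMG-CoA at the start of the pathway, measured 225, 255 and 334 CPM in SCA3 and 257, 370 and 458 CPM in wild-type (-0.43, SE 0.12, FDR 0.0291). Cyp51, the lanosterol demethylase, measured 76.4, 88.5 and 115 CPM against 92.7, 135 and 146 CPM (-0.45, SE 0.13, FDR 0.023). Msmo1, the methyl sterol oxidase, measured 67.4, 75.7 and 92.1 CPM against 85.7, 99.9 and 126 CPM (-0.40, SE 0.1, FDR 0.00492). Groups overlapped in all 3 enzymes. Hmgcs1 and Cyp51 were not called by the quasi-likelihood test (FDR 0.0853 and 0.0793) or by limma-voom (FDR 0.0844 and 0.0779), and each lost its call in 8 of the 14 fits with a library left out.

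Of 21 enzymes for fatty acids and myelin lipids, 4 fell (Ugt8a, Scd2, Acsl3 and Fads1; 19% of the list, against 3.17% of all genes; list median -0.16). The quasi-likelihood test called 2 of the list and limma-voom 3, and Fads1 lost its call in 7 of the 14 fits with a library left out. Scd2, the main desaturase of brain, fell by 0.36 (FDR 0.00436). Scap, which escorts the sterol-regulated transcription factors, was the 1 gene called of 20 for cholesterol control and transport, a share of 5%, at 0.23 (FDR 0.00501). With RIN as covariate no member of these 3 lists was called. In the largest mouse number group none was called either, with list medians of -0.21 for cholesterol enzymes and -0.17 for fatty acid and myelin lipid enzymes. That group holds 7 libraries. With the Th set as covariate 10 cholesterol enzymes and 7 of fatty acids and myelin lipids were called lower, and in low-Th libraries alone 4 and 9 (list medians -0.19 and -0.23).

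The promoter windows of the 3 called cholesterol enzymes are shown because sterol-regulated factors and NF-Y, which binds CCAAT, are known to act on promoters of this pathway. They are RefSeq start sites in GRCm38.p6, from 250 bases before to 50 after the start, on the gene's strand. Capitals mark CCAAT on either strand (read as ATTGG on the reverse strand) and, in Hmgcs1, the sterol response motif of the letters TCAC, N and CCAC in that order (N, any base), which overlaps no CCAAT.
Hmgcs1, chr13:119690101-119690400, + strand: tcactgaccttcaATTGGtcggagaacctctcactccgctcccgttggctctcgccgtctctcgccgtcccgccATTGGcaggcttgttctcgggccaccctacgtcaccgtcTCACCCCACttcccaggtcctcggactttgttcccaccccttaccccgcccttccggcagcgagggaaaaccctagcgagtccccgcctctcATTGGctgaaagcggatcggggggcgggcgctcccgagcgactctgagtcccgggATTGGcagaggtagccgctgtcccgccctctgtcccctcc
Cyp51, chr5:4104648-4104947, - strand: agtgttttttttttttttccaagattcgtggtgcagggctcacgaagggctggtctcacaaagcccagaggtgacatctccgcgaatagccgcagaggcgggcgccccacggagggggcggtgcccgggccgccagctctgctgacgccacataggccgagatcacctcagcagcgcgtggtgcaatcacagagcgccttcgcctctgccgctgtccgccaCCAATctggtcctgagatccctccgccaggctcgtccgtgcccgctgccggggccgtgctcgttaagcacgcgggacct
Msmo1, chr8:64733529-64733828, - strand: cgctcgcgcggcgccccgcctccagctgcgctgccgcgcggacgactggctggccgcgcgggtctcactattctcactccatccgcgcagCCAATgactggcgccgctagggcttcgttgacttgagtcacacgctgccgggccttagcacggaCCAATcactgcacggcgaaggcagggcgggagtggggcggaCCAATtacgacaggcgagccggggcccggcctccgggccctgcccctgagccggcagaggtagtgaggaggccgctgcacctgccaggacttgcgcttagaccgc

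Of 32851 RefSeq promoter windows of this length, with 1 chromosome left out, 37.4% held CCAAT and 1.24% held the sterol response motif. These shares count windows, while the counts that follow are of genes with a match in any window, so they are not like measures. A window was at hand for 17 of the 22 enzymes, some genes having several, and 16 of the 17 held CCAAT in at least 1 window while 1, Hmgcs1, held the sterol response motif. These are letter matches, not sites of binding.

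**Figure D3:**
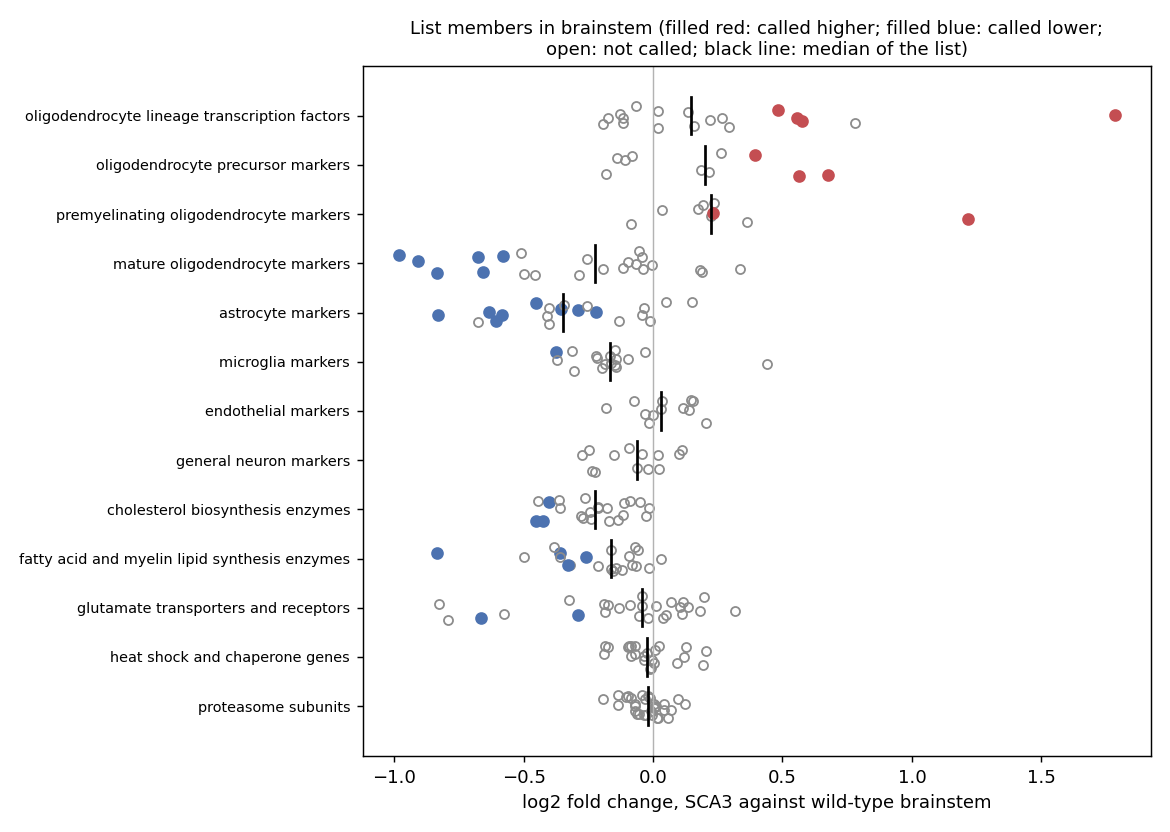
Log2 fold change of each measured list member in SCA3 against wild-type brainstem, with filled red points called higher, filled blue points called lower, open points not called and a black line at the list median. Mature oligodendrocyte (-0.22), astrocyte (-0.35) and cholesterol enzyme (-0.23) medians lie left of 0 and those of lineage transcription factors (0.15), precursor (0.20) and premyelinating (0.22) markers to the right.

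Amino acid and choline metabolism changed in single enzymes. Of 23 choline, serine and one-carbon enzymes, Chdh and Psat1 rose and Cbs and Aldh1l1 fell (17.4%, against 3.17% of all genes). Psat1, which makes the precursor of serine, measured 238, 267 and 295 CPM in SCA3 and 138, 196 and 226 CPM in wild-type (0.47, FDR 0.000577). Cbs, which commits homocysteine to cysteine synthesis, measured 31, 34.2 and 36.3 CPM against 39.3, 46.1 and 49.5 CPM (-0.41, FDR 2.24e-07). Neither overlapped, but in the largest mouse number group alone neither was called (0.50, FDR 0.0685 and -0.37, FDR 0.0679). Among 26 glutamate receptors and vesicular transporters 2 fell, Grm3, a metabotropic receptor also found on glia (-0.66, FDR 1.81e-06), and Grm7 (-0.29, FDR 0.0402), or 7.69% against 3.17% of all genes. Grm7 lost its call under 7 of the 16 settings, among them the quasi-likelihood test (FDR 0.0811) and limma-voom (FDR 0.0838), and in 10 of the 14 fits with a library left out. Of 27 growth factor receptor and PI3K genes, Fgfr2 (-0.59, FDR 0.00674) and Fgfr3 fell (7.41%). None of the 27 was called by the quasi-likelihood test (Fgfr2 FDR 0.0529), by limma-voom, with RIN as covariate or in the largest mouse number group, while DESeq2 called 1 higher and 4 lower. Fgfr3 lost its call in 11 of the 14 fits with a library left out.

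Neuronal, vascular and protein quality genes gave few calls. By edgeR none of 13 general neuron markers was called (median -0.06; 2 at unadjusted p below 0.05, 1 called by DESeq2 and none by limma-voom), and none of 12 endothelial markers (median 0.03; none at that p or by either tool). P2ry12, a purine receptor of resting microglia, was the only 1 of 17 microglia markers called (-0.38, FDR 0.0258), while 16 of the 17 lay below 0 (median -0.17). That is 5.88% of the list, and the call was lost under 8 of the 16 settings and in 8 of the 14 fits with a library left out. None of 31 proteasome subunits (median -0.02; 2 at unadjusted p, 1 by DESeq2, none by limma-voom) and none of 23 heat shock and chaperone genes (median -0.02; 2, 1 and none) was called. The 20 ataxin-3 partners and Josephin relatives gave no call (median 0.02; 1 at unadjusted p, none by DESeq2 or limma-voom), nor did 18 genes of the unfolded protein and integrated stress responses (median 0.01; 2, none and none). Of 19 DNA damage response genes Atm fell (-0.37, FDR 0.0458), and of 18 clock genes Clock fell (-0.29, FDR 0.0176), or 5.26% and 5.56% of these lists against 3.17% of all genes. Atm lost its call under 5 of the 16 settings and in 11 of the 14 fits with a library left out, and Clock under 6 and in 3. Neither was called by the quasi-likelihood test (FDR 0.0956 and 0.0567), by limma-voom (FDR 0.0838 and 0.051) or with RIN as covariate.

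Markers of neighbouring tissue were looked at beside these results. None of 10 thalamus, 8 cerebellum, 6 midbrain dopamine or 7 meningeal markers was called by edgeR, DESeq2 or limma-voom, with list medians of 0.18, 0.07, -0.20 and -0.50. At an unadjusted p below 0.05 the counts were none, none, 1 and none. General neuron markers are given above, and 8 forebrain neuron markers gave no call either (median -0.26; 1 at that p, none by DESeq2 or limma-voom). Other fits gave single calls: in low-Th libraries alone 1 cerebellum marker was higher (list median 0.65) and 1 midbrain dopamine gene lower, as 1 was with the Th set as covariate, and in the largest mouse number group 1 thalamus marker was higher (list median 0.68) and 1 forebrain neuron marker lower. The summed level of meningeal markers ranged from 76.3 to 254 CPM in SCA3 and from 82.5 to 680.4 CPM in wild-type, and that of general neuron markers from 8389 to 12190 and from 9455 to 13550 CPM. With RIN as covariate the meningeal median was 0.77, and with the Th set as covariate 1 general neuron marker was called lower. The part of these cells in the results above was not tested.

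Whether the brainstem effect differed from that in the rest of the brain was tested in a fit of all 53 libraries, as the brainstem effect minus the mean effect of cerebellum, cortex and striatum. At an FDR below 0.05, 16 genes were called (0.129% of those tested), 5 with a more positive and 11 with a more negative effect in brainstem. Ppl differed by 1.39 (SE 0.28, FDR 0.00285), its log2 fold change being 2.14 in brainstem and 0.62 to 0.90 in the others. Polr2a differed by 0.42 (SE 0.1, FDR 0.0423), with 0.74 in brainstem and 0.16 to 0.47 elsewhere, and Col9a2 by 0.79 (SE 0.19, FDR 0.0303), with 0.97 against -0.02 to 0.29. Slc13a5, the citrate transporter of the cell membrane, and Etv4, a transcription factor induced by fibroblast growth factors, differed by 0.55 (FDR 0.0303) and 0.57 (FDR 0.0334). The log2 fold change of Slc13a5 was 0.44 in brainstem and -0.18 to 0.0013 elsewhere, and that of Etv4 0.51 and -0.28 to 0.10. In brainstem fitted alone, Etv4 lost its call under 5 of the 16 settings and in 3 of the 14 fits with a library left out.

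On the negative side, Slc1a2 differed by -0.67 (SE 0.14, FDR 0.0102). Its log2 fold change was -0.83 in brainstem, -0.23 in cerebellum, -0.16 in cortex and -0.09 in striatum. Myo9a, an unconventional myosin, had -0.44 in brainstem and -0.06 to 0.06 elsewhere (difference -0.44, SE 0.08, FDR 0.00226). Ttyh1 differed by -0.34 (FDR 0.00634), Samd12 by -0.69 (FDR 0.0207) and LOC100862268 by -0.69 (FDR 0.0173). Samd12 had -0.51 in brainstem and 0.02 to 0.35 elsewhere, and LOC100862268 -0.57 and 0.04 to 0.27. The mouse pairs libraries across regions, and with the mouse as a fixed block 61 genes were called, all 16 included. With edgeR's quasi-likelihood test 3 genes were called. Leaving out 1 mouse gave 2 to 53 calls, with 2 without SCA3 replicate 1, 4 without SCA3 replicate 5 or 6, 6 without wild-type replicate 5, 8 without wild-type replicate 2, 6 or 7, 29 and 43 without SCA3 replicates 2 and 3, and 53 without wild-type replicate 1.

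For Zfp488, Chdh, Il33 and Car2 the difference between regions did not pass the test (FDR 0.347, 0.484, 0.475 and 0.258). Zfp488 had a log2 fold change of 1.79 in brainstem and 1.25 to 1.45 elsewhere, and Il33 -1.35 and -0.87 to -1.20. Of the 392 genes called in brainstem 329 had the same direction in cerebellum (83.9%, against 55.3% of all genes), 294 in cortex (75%, against 49.9%) and 289 in striatum (73.7%, against 52.9%). The regions come from the same mice, so these shares are a description.

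**Figure D4:**
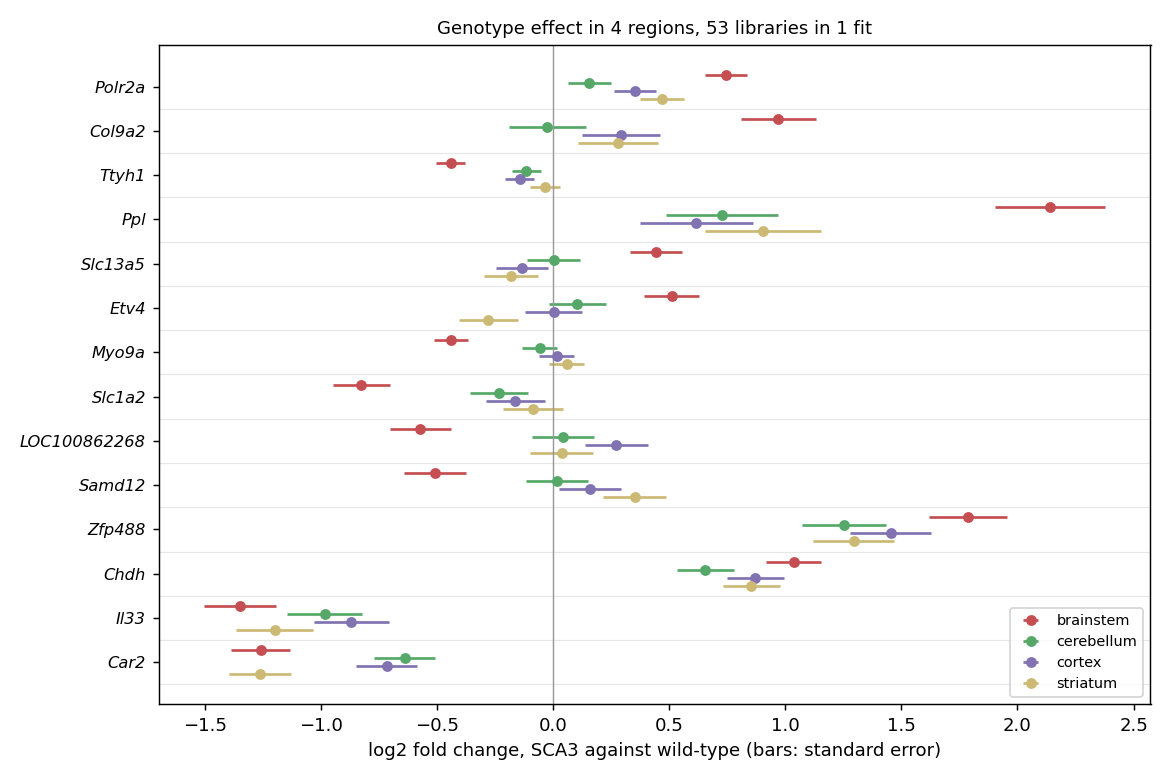
Log2 fold change of SCA3 against wild-type (points) with its standard error (bars) in brainstem, cerebellum, cortex and striatum, from 1 fit of 53 libraries. For the upper 10 genes the brainstem effect differed from the mean of the other regions, as for Ppl (2.14 against 0.62 to 0.90) and Slc1a2 (-0.83 against -0.23 to -0.09), and for the lower 4 it did not pass that test.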

How the data were processed

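The deposited values were raw counts of reads per gene, whole numbers with 1 column per library. Per the labels and the study's methods, the authors prepared unstranded libraries, trimmed reads (cutadapt 1.10), aligned them to GRCm38 with STAR 2.3.0e keeping unique alignments, counted RefSeq genes with HTSeq 0.6.1 and kept genes averaging above 4 CPM (the lowest average in the table was 4.07). Reads of overlapping genes and near-identical copies were thus not separated.

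The 14 brainstem libraries were fitted alone with edgeR 4.0.16 (R 4.3.3): TMM normalisation, a negative binomial model with genotype, a likelihood ratio test and Benjamini-Hochberg adjustment over 12372 genes. CPM used TMM-adjusted totals. Standard errors came from the fitted model. The contrast against other regions used 8 groups in 1 fit of 53 libraries. The fits were tested on simulated counts. For brainstem 16 alternatives were tried beside leaving out each library. They used DESeq2 1.42.0, limma 3.58.1 and sva 3.50.0; those with the Th set (threshold 20 CPM), the first principal component, or RIN without the library of RIN 6.3 were chosen after seeing the data. Named genes were Atxn3, the 12 higher and 12 lower of smallest FDR, the 5 of largest fold change in each direction, up to 5 per direction for the regional contrast, and list members. The members and lists were chosen with earlier results of these data known. Positions are from GENCODE M21 (99.59% of genes placed).

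Mice pair libraries across regions. The deviations of a mouse's brainstem and other libraries from their group means had a mean Pearson r of 0.104, 0.1 and 0.186 for cerebellum, cortex and striatum (13 mice each). Genotype in brainstem is unpaired. A few results are not reported here.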

Additional observations from a re-analysis of the deposited data

Results flagged for a closer look

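In 148 groups of 6 or 8 libraries examined for 1 sample far from the rest, 9 stood out, and chance alone flags about 1 in 20 such groups (7.4 here). In wild-type brainstem, replicate 7 was low for Il33 (123 CPM, next 163 CPM) and Neu4 (9.1 CPM, next 15.3 CPM), replicate 1 was high for Slc13a5 (11.9 CPM, next 8.64 CPM) and Fads1 (312 CPM, next 269 CPM), and replicate 8 was low for Samd12 (3.01 CPM, next 4.11 CPM). These 3 replicates are the high-Th libraries of that genotype. Wild-type replicate 3 was high for Ppl (6.3 CPM, next 2.48 CPM) and low in RIN (6.3, next 7.1). In SCA3 brainstem, replicate 1, whose library had the highest Cbln3, was low for Chil1 (11.2 CPM, next 13.8 CPM), and replicate 4 was high for Sox8 (116 CPM, next 95.7 CPM). Il33 and Ppl kept their calls with each of the 14 libraries left out in turn, while Samd12 lost it without SCA3 replicates 4 or 5.

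The genotype effect in brainstem differed from the mean of the other regions, by the test of that difference in edgeR, for Ppl (1.39), Slc13a5 (0.55), Col9a2 (0.79), Etv4 (0.57) and Polr2a (0.42), and for Myo9a (-0.44), Ttyh1 (-0.34), Slc1a2 (-0.67), LOC100862268 (-0.69) and Samd12 (-0.69).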

How the results depend on the processing

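The 392 calls (164 higher, 228 lower) became 770 (346, 424) with DESeq2, 238 (96, 142) with 53 libraries in 1 fit, 216 (116, 100) with RIN as covariate, 116 (65, 51) with RIN and without the library of RIN 6.3, 230 (52, 178) in the largest mouse number group alone, 838 (346, 492) with the Th set, 964 (445, 519) with the first principal component, 564 (260, 304) with the mouse number group as covariate, 262 (116, 146) with the quasi-likelihood test and 474 (141, 333) in low-Th libraries. Leaving out 1 library gave 249 to 516 calls, 107 to 182 higher and 141 to 347 lower. The lowest counts came without SCA3 replicates 5 (249) and 1 (253) and wild-type replicate 4 (258). Without SCA3 replicate 2, 347 were lower.

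The regional contrast was fitted without a block for the mouse: its 16 calls became 61 with a fixed replicate block, 44 with a random replicate block and 3 with the quasi-likelihood test, and 2 to 53 without each mouse in turn (2 without SCA3 replicate 1, 53 without wild-type replicate 1). No paired analysis was possible because no mouse has both genotypes for the comparison within brainstem.

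Of the 24 leading genes (the 12 higher and 12 lower of smallest FDR), 23 kept their call under 16 alternatives and 24 with each library left out. Col9a3 had FDR 0.0521 with 53 libraries in 1 fit. Of 44 called list members 11 kept it under all 16 and 31 with each library left out; RIN as covariate ended 25 of these calls and the largest mouse number group alone 30. The 44 became 28 with the quasi-likelihood test, 29 with limma-voom, 20 with RIN and 20 in the largest mouse number group, 80 with the Th set, 83 with the first principal component, 16 with RIN and without the library of RIN 6.3, and 32 to 61 with 1 library left out. No called gene among these reversed. Atxn3, not called, had -0.0023 with limma-voom, 0.0847 with RIN as covariate (FDR 0.876) and -0.0259 to 0.0524 without each library. Over the 16 settings its highest log2 fold change was 0.1148 and its lowest FDR 0.418.

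The RIN difference was 0.242 and 1.08 within the largest 2 mouse number groups and 0.412 to 0.623 without each library. The difference in library totals was -3.54 M within the largest group, and 11.6 to 17.4 M without each library, passing the test without wild-type replicates 5 (17.4) or 7 (17.2). The bodyweight difference was -17.1 within the largest group (exact permutation p = 0.029, the smallest possible). It was -9.53 within the second largest group, which cannot reach p below 0.1, and -13.2 to -10.85 without each mouse. Scaled by library totals in place of TMM-adjusted totals, the wild-type median of Glra1 moved by less than the spread between libraries. The causes were not tested.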
